A study of Mus musculus with 19 samples.

Results

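Fatty acid and sterol synthesis were followed through 27 genes in embryonic urogenital sinus and skin of the mouse. The genes were chosen by name from the probe annotation, with earlier results of these data known. Counts of them set beside shares of all genes are therefore no test. Each gene was represented by its brightest probe set, and they are 27 of the 17360 genes with a tested probe set. They fall into 3 regulators (Srebf1, Srebf2 and Insig1), 11 genes of fatty acid synthesis and desaturation (Acly, Acss2, Me1, Acaca, Fasn, Elovl6, Scd1, Scd2, Fads1, Fads2 and Gpam) and 13 genes of sterol synthesis (Hmgcs1, Mvk, Pmvk, Mvd, Idi1, Fdps, Fdft1, Sqle, Lss, Cyp51, Msmo1, Nsdhl and Dhcr7). All 27 passed the filter on low values.

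RNA was measured on 19 arrays of untreated C57BL/6 tissue at embryonic day 16: 6 of urogenital sinus epithelium (UGE), 5 of urogenital sinus mesenchyme (UGM), 4 of back epidermis and 4 of the dermis beneath it. The urogenital sinus is the embryonic tissue from which the prostate buds, and the study used skin to set its epithelium and mesenchyme against those of another organ. Trypsin parted UGE from UGM, whereas skin layers were parted by hand after a night in cold dispase, so site and separation method cannot be told apart. Each sample was pooled tissue, and skin came from the embryos that gave urogenital sinus, which means that a pool of 1 group may hold embryos that another group also drew on.

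Fatty acid and sterol synthesis both start from cytosolic acetyl-CoA. In the sterol branch, acetyl-CoA is built into HMG-CoA, mevalonate, isoprenoid diphosphates, squalene and finally cholesterol. In the fatty acid branch it becomes malonyl-CoA and palmitate, which elongases lengthen and desaturases unsaturate. Transcription of both branches is driven by SREBP proteins, the products of Srebf1 and Srebf2, which are held in the endoplasmic reticulum by Insig proteins when sterols are plentiful. Epidermis is known for a high output of cholesterol, fatty acids and ceramides, the lipids of its water barrier.

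The values are intensities that the authors had normalized between arrays, with array medians of 76.2 to 81.6. They were put on the log2 scale, on which a difference of 1 is a factor of 2, and only values of the same probe set were compared. A difference was called when the adjusted p of limma was under 0.01 and the change was over 2-fold. The tissues carried transcripts of one another. Mesenchymal markers (8 of 8 measured, summed intensity) were strongest in the mesenchymes, UGM at 77710 to 87440 and dermis at 89270 to 114464, but UGE still had 3601 to 17052 and epidermis 22493 to 41338. UGE replicates 2 and 3 were the highest of UGE, at 17052 and 16726. Epithelial markers (8 of 8 measured, summed intensity) were strongest in the epithelia, UGE at 48183 to 53334 and epidermis at 40367 to 48895. Dermis had 16141 to 31400 where UGM had 1409 to 3707. Within each site each of the 8 had its higher mean in the epithelium. Across sites, Krt5 and Krt14 had higher log2 means in dermis (13.28 and 12.79) than in UGE (12.90 and 10.85). Krt18 was higher in UGM (9.27) than in epidermis (9.14). Epidermal differentiation markers (7 of 8 measured) summed to 95226 to 122634 in epidermis and still to 25621 to 80203 in dermis, the highest in dermis replicate 1, against 4725 to 5992 in UGE and 1117 to 1562 in UGM. The part of this carry-over in the results was not tested. In tissue as in these samples, fewer cells of a type and less RNA per cell cannot be told apart.

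The promoters of 21 of the 27 members were in the RefSeq promoter table (build GRCm38.p6), and 5 are shown because they stand for the genes on which the results turn. These are the earliest enzyme among the sterol members, a pair of sterol enzymes high in epidermis, the fatty acid synthase and a desaturase low in epidermis. Each run is the 250 bases before the annotated start, 5′ to 3′ on the strand of the gene. Capitals mark CCAAT on either strand (read as ATTGG on the other), the box bound by NF-Y, and TCACNCCAC, a form of the sterol regulatory element. The windows are chr13:119690101-119690350 (+) for Hmgcs1, chr5:114444019-114444268 (+) for Mvk, chr10:76531355-76531604 (+) for Lss, chr11:120824548-120824797 (−) for Fasn and chr19:10101504-10101753 (−) for Fads2.
Hmgcs1: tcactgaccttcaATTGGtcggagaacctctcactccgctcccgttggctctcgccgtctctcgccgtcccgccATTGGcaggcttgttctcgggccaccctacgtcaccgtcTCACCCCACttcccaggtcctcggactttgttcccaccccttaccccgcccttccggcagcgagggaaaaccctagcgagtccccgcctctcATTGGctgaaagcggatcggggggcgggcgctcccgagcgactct
Mvk: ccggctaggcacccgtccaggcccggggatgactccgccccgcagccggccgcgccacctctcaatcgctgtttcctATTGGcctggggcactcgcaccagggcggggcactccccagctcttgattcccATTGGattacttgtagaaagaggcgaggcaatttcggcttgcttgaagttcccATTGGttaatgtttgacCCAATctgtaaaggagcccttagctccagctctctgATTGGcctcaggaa
Lss: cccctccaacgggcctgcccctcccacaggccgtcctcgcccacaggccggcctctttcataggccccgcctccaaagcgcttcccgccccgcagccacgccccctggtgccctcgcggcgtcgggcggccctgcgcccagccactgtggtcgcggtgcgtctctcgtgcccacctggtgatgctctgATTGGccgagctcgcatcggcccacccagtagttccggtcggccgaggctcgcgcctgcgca
Fasn: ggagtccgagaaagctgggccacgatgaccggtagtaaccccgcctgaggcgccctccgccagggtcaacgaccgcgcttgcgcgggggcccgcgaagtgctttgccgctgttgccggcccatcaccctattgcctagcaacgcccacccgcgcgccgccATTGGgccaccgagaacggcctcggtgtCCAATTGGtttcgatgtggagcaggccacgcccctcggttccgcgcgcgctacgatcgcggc
Fads2: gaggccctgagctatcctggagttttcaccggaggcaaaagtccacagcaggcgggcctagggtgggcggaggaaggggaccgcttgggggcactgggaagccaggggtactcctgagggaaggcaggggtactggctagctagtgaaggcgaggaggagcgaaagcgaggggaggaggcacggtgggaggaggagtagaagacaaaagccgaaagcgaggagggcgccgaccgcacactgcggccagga

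Each sterol gene with a promoter had the CCAAT box in at least 1 of its windows. Counted by gene, with any window sufficing, it was in 10 of 10 sterol members, 4 of 8 fatty acid members and 3 of 3 regulators, against 37.5% of the 27025 genes in the table. Some genes have several annotated starts, and counted by window it was in 10 of 13 sterol windows and 4 of 10 fatty acid windows, against 33.8% of all windows. Mvk held 5 copies, Hmgcs1 and Fasn 3 each (a pair of those in Fasn overlap on opposite strands) and Lss 1, while Fads2 held none. The GC box GGGCGG, a binding site of Sp1, was in 9 of 10 sterol and 5 of 8 fatty acid members by gene, against 35.4% of genes. TCACNCCAC was found in Hmgcs1 alone among the 21, as TCACCCCAC, 129 bases before the start, against 1.22% of genes. The E-box CACGTG was found in Insig1 and Dhcr7, against 6.86% of genes. These are matches of letters within the windows searched and do not show binding.

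Group means of the sterol members had 1 order at the top. The epidermis had the highest mean of the 4 groups for 13 of 13 sterol members, compared with 6 of 11 fatty acid members and 1 of 3 regulators. UGM had the highest mean for 4 fatty acid members, Acss2, Scd1, Fads1 and Fads2. The share of all genes with their highest mean in epidermis or in UGM was not counted. In 6 sterol members (Mvk, Pmvk, Sqle, Lss, Msmo1 and Dhcr7) every epidermis sample lay above every other sample, as it did in 3 fatty acid members (Acly, Me1 and Gpam, the last by 0.01), and 5.97% of all genes showed this.

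**Figure D1:**
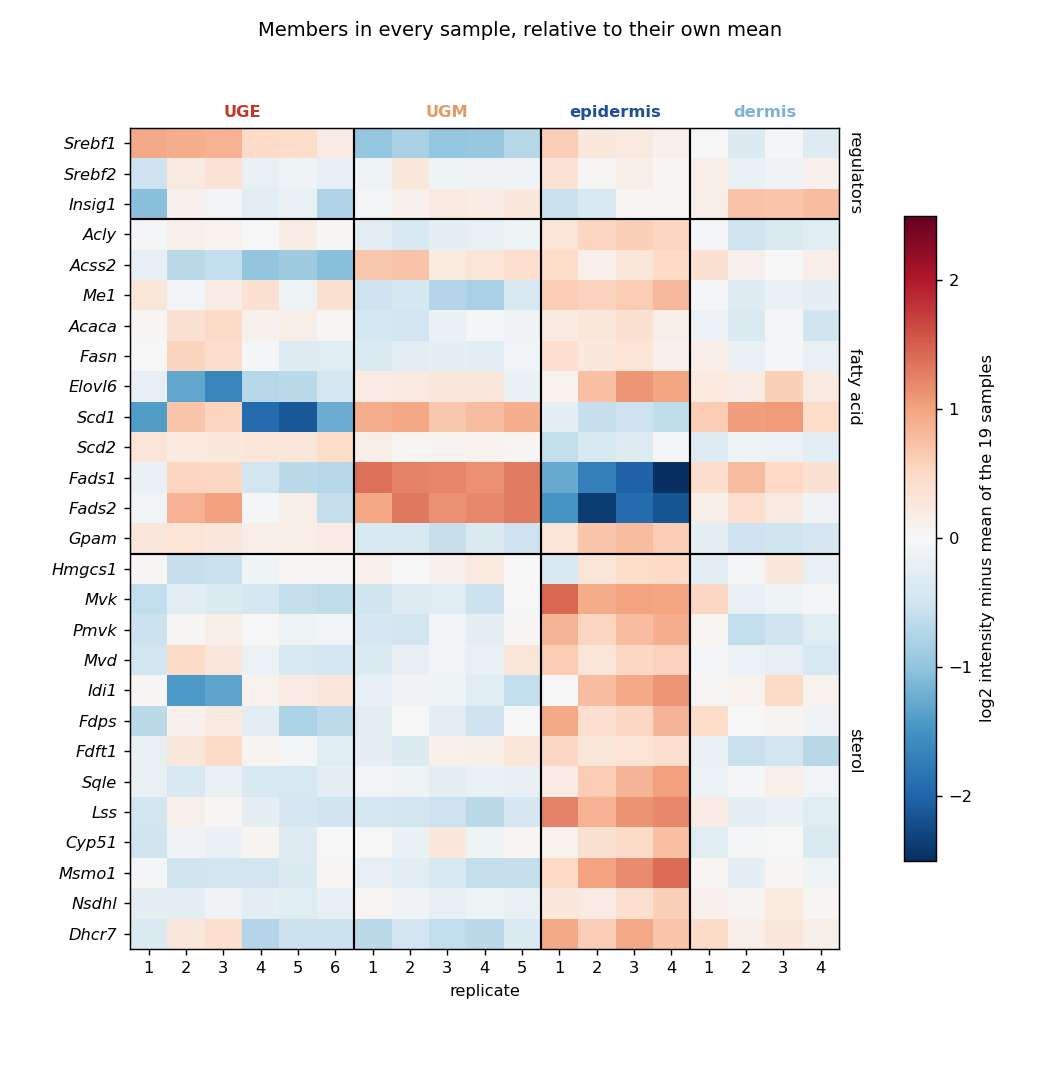
Log2 intensity of the 27 members (rows) in the 19 samples (columns, by group and replicate), each minus the mean of that gene over all samples; red is above and blue below the mean. Sterol members are mostly red in the epidermis columns, except Hmgcs1, which is blue in replicate 1, and Idi1, which is near its mean there. Fads1 and Fads2 are darkest blue in epidermis and red in UGM. UGE replicates 2 and 3 differ from the other UGE samples for Elovl6, Scd1 and Idi1.

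Among the regulators, Srebf1 differed between compartments of the urogenital sinus. Srebf1 encodes the SREBP form best known for driving fatty acid genes. Its log2 intensity ran from 11.01 to 11.75 in UGE (median 11.48), and was 9.85, 9.99, 9.83, 9.86 and 10.09 in UGM. Every UGE sample was above every UGM sample. The difference was 1.53 ± 0.14 (SE, n = 6 and 5), a factor of 2.88 (adjusted p = 2.74e-06, limma). Of all genes, 6.75% were called higher in UGE and 10.0% lower. In skin Srebf1 was 11.43, 11.08, 11.05 and 10.94 in epidermis and 10.80, 10.47, 10.76 and 10.48 in dermis. These groups did not overlap, but the difference of 0.49 ± 0.14 was not called (adjusted p = 0.0179). The difference between the 2 compartment differences was called, at 1.03 ± 0.20 (adjusted p = 9.51e-04), close to the fold limit. It fell under that limit without UGE replicate 1, 2 or 3, epidermis replicate 4, or dermis replicate 1 or 3, at 0.97 to 0.99, and to 0.91 without UGE replicates 2 and 3 together.

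Srebf2, whose product chiefly drives sterol genes, was not called in any comparison. Its means were 8.62 ± 0.32 (SD) in UGE, 8.67 ± 0.16 in UGM, 8.84 ± 0.15 in epidermis and 8.70 ± 0.15 in dermis, so the 4 groups lay within their spread. Insig1, a target of SREBP as well as its brake, had differences of the opposite sign to Srebf1. UGE minus UGM was -0.52 ± 0.19 and epidermis minus dermis -0.80 ± 0.18, neither of them called (adjusted p = 0.05 and 0.00712). Dermis held its highest values, 9.43, 9.41 and 9.48 in replicates 2 to 4 and 8.87 in replicate 1. Every dermis sample was above every epidermis sample, which ran from 8.16 to 8.76.

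In skin, the sterol members that differed between layers were higher in epidermis. Of 13, 4 were called higher (Mvk, Pmvk, Lss and Msmo1) and none lower, against 5.84% and 11.1% of all genes called higher and lower in epidermis. The log2 difference was above 0 for 13 of 13, with a median of 0.70, while the median over all genes was 0.01. By adjusted p alone, with no fold limit, 8 of 13 were higher, against 10.9% of all genes. In 9 of 13 the epidermis samples lay above all dermis samples, against 16.0% of genes.

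Mvk, mevalonate kinase, was 10.49, 9.99, 10.06 and 10.04 in epidermis and 9.56, 8.86, 8.95 and 8.99 in dermis. Replicate 1 was the highest of both layers, and the layers did not overlap. The difference was 1.06 ± 0.18 (adjusted p = 0.0011). Pmvk, the kinase of the next step, was 10.57, 10.25, 10.50 and 10.63 in epidermis and 9.77, 9.11, 9.23 and 9.42 in dermis, a difference of 1.11 ± 0.15 (adjusted p = 3.89e-04). Its groups were apart as well, and dermis replicate 1 was again the highest of its layer. Lss, lanosterol synthase, which closes the sterol rings, was 10.61, 10.25, 10.50 and 10.57 in epidermis and 9.57, 9.16, 9.22 and 9.07 in dermis. This was the largest difference among the sterol members, 1.23 ± 0.14 or 2.34-fold (adjusted p = 9.72e-05), and its dimmer probe sets gave 1.23, called, and 0.39, not called. Msmo1, a methylsterol oxidase that acts after Lss, was 10.74, 11.24, 11.41 and 11.63 in epidermis and 10.27, 9.99, 10.28 and 10.11 in dermis, with a difference of 1.09 ± 0.18 (adjusted p = 0.00103). Here epidermis replicate 1 was the lowest of its layer, the opposite of Mvk.

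The other 9 sterol members had smaller differences, from 0.25 for Nsdhl, a sterol dehydrogenase, and 0.28 for Hmgcs1, HMG-CoA synthase, to 0.87 for Fdft1, squalene synthase. Fdft1 had an adjusted p of 4.86e-04 and Mvd, the decarboxylase that ends the mevalonate steps, of 0.00125 at 0.70 ± 0.12, both short of the fold limit. Idi1, the isomerase that follows, was 10.77 in epidermis replicate 1 and 11.54, 11.71 and 11.87 in replicates 2 to 4, against 10.79 to 11.24 in dermis. Epidermis replicate 1 alone made these groups overlap. It was also below every dermis sample for Hmgcs1 (12.63, against 12.72 to 13.27). A dimmer Mvk probe set gave 0.46 and was not called. With the median over the probe sets of a gene, Mvk was at 0.76 and Msmo1 at 0.89 in skin, and neither was called. The calls of Mvk and Msmo1 rest near the fold limit: Mvk was at 0.94 without epidermis replicate 1 and 0.98 without dermis replicate 2, and Msmo1 at 0.97 without epidermis replicate 4. The methods' t-test called 2 of the 13, and leaving out both replicates numbered 1 left the count over all 27 members at 8.

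UGE and UGM did not differ detectably in the sterol members. None of 13 was called by limma or by the methods' t-test. None passed by adjusted p alone, against 14.5% of all genes higher and 16.0% lower in UGE. By limma none had an unadjusted p under 0.05, against 4201 of 17360 genes higher and 4078 lower. Neither group lay apart from the other in any of the 13, against 14.5% of genes with every UGE sample above UGM and 16.2% the reverse. The median difference was -0.10, and the 95% intervals of the 13 differences lay between -0.81 and 0.75, short of 2-fold in either direction. The brighter of the dimmer Lss probe sets, at -0.76, disagreed with the brightest, at 0.26, and neither was called. The widest interval was that of Idi1. Idi1 was 10.80, 9.33, 9.45, 10.85, 10.98 and 11.04 in UGE replicates 1 to 6, and 10.56, 10.69, 10.65, 10.47 and 10.16 in UGM. The UGE samples with more mesenchymal transcripts, replicates 2 and 3, lay below all UGM samples and the other 4 above all of them. Without replicates 2 and 3 the Idi1 difference was 0.41 rather than -0.10, with an adjusted p of 0.0151, and remained uncalled. Hmgcs1 was likewise lowest in those replicates (12.42 and 12.45, against 12.89 to 13.04). Sterol members such as Mvk, Pmvk, Mvd, Fdps, Lss and Dhcr7 were highest there.

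**Figure D2:**
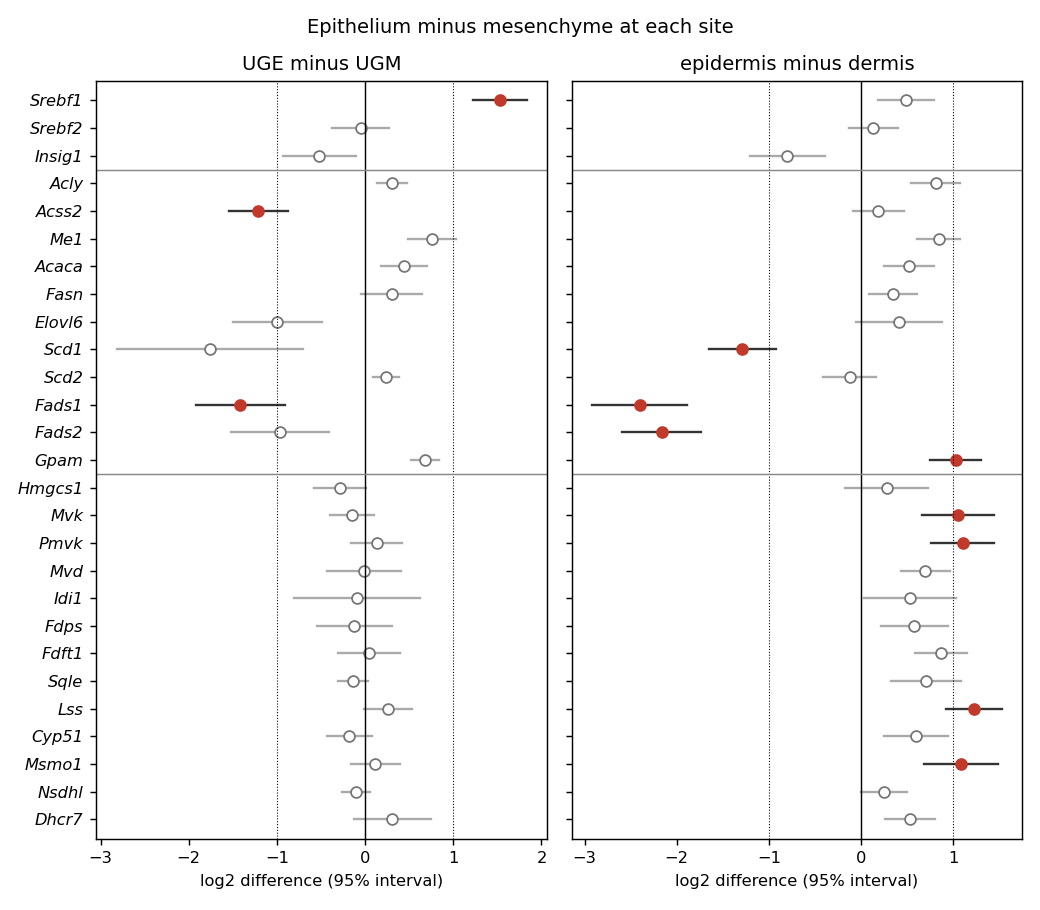
Log2 difference with its 95% interval for each member, UGE minus UGM (left) and epidermis minus dermis (right); filled red points are called and dotted lines mark 2-fold. The sterol members (lowest block) lie around 0 on the left and above 0 on the right, with Mvk, Pmvk, Lss and Msmo1 called.

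Between epithelia, the sterol members that differed were lower in UGE. Of 13, 5 were called lower (Mvk, Fdps, Lss, Msmo1 and Dhcr7) and none higher, against 6.12% of all genes lower and 8.28% higher in UGE. All 13 differences were below 0, with a median of -0.97 against -0.04 over all genes, 10 of 13 passed by adjusted p alone (12.2% of genes), and 9 of 13 had every epidermis sample above UGE (12.2% of genes). This comparison and that of epidermis with dermis use the same 4 epidermis samples. Mvk, at 8.42 to 8.79 in UGE (median 8.54), was lowest relative to epidermis, by 1.58 ± 0.14 on the log2 scale or 2.98-fold (adjusted p = 6.18e-08). Lss, at 8.87 to 9.51 in UGE (median 9.04), had a difference of -1.35 ± 0.13 (adjusted p = 1.32e-07). For both enzymes the gap to the epidermis values exceeded the range within either group. Msmo1, at 9.74 to 10.27 in UGE (median 9.83), differed by -1.32 ± 0.15 (adjusted p = 1.29e-06), but with the median over its probe sets it was at -0.61 and not called. A dimmer Mvk probe set gave -0.69 and was not called.

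Fdps, farnesyl diphosphate synthase, was 8.42 to 9.43 in UGE (median 8.74) and 10.16, 9.64, 9.73 and 10.06 in epidermis, a difference of -1.03 ± 0.19 (adjusted p = 2.84e-04). Dhcr7, the reductase that yields cholesterol, was 9.36 to 10.51 in UGE (median 9.66) and 11.05, 10.71, 11.04 and 10.79 in epidermis, a difference of -1.05 ± 0.18 (adjusted p = 1.64e-04). UGE replicates 2 and 3 were the nearest to epidermis for these enzymes. Both differences sit at the fold limit. Fdps went to -0.94 to -0.98 without UGE replicate 1, 5 or 6 or epidermis replicate 1 or 4. Dhcr7 went to values between -0.95 and -0.9999 without UGE replicate 4, 5 or 6 or epidermis replicate 1 or 3.

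Between mesenchymes, no sterol member was called. Of all genes, 6.77% were called higher and 7.00% lower in UGM than in dermis. By limma, unadjusted p was under 0.05 for 1 sterol member higher in UGM and 5 lower, against 3649 and 4633 of 17360 genes. The largest difference was that of Dhcr7, which was 9.43 to 9.75 in UGM and 10.25 to 10.57 in dermis without overlap, at -0.82 ± 0.19 (adjusted p = 0.00227). Idi1 and Lss were also higher in dermis without overlap, and the share of all genes that were so was not counted. The difference between the compartment differences was below 0 for all 13 sterol members (median -0.78), because epidermis minus dermis was the larger. It was called for Mvk at -1.21 ± 0.21 (adjusted p = 2.74e-04), against 5.41% of genes called lower and 7.53% higher, and 6 of 13 passed by adjusted p alone, against 6.99% of genes. The Mvk call was lost with the median over probe sets (-0.88), under which Lss was called (-1.9985). With the replicate number as a block Msmo1 was called too, at -1.04.

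The enzymes that supply acetyl-CoA and build palmitate were not called between compartments at their brightest probe sets, except Acss2. Acss2 makes acetyl-CoA from acetate. It was 6.59 to 7.42 in UGE (median 6.84), 8.31, 8.34, 7.87, 7.94 and 8.04 in UGM, 8.10, 7.75, 7.94 and 8.14 in epidermis and 8.01, 7.74, 7.62 and 7.79 in dermis. UGE stood below the other 3 groups without overlap. Acss2 was lower in UGE than in UGM by 1.21 ± 0.15 on the log2 scale or 2.31-fold (adjusted p = 5.23e-05) and differed from epidermis by -1.09 ± 0.15 (adjusted p = 9.27e-06). In skin its difference was 0.19 ± 0.13, uncalled, and the difference between sites was called at -1.40 ± 0.21 (adjusted p = 7.53e-05). A second probe set of the gene gave -1.52 for UGE minus UGM, and a faint one, with a mean of 4.97, gave 0.06. With 50 added before log2, UGE minus UGM was -0.94 and UGE minus epidermis -0.84, and neither was called.

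Acly, which splits citrate into acetyl-CoA, had means of 12.71 ± 0.09 (SD) in UGE, 12.41 ± 0.10 in UGM, 13.15 ± 0.11 in epidermis and 12.34 ± 0.19 in dermis. Its difference in skin, 0.81 ± 0.12 (adjusted p = 5.32e-04), was under the fold limit. A pair of dimmer Acly probe sets gave 1.04 and 1.05 and were called. The same pair was called lower in UGE than in epidermis, at -1.03 and -1.57, where the brightest gave -0.44. Me1, malic enzyme, a source of NADPH, had differences of 0.76 ± 0.12 in the urogenital sinus and 0.84 ± 0.10 in skin (adjusted p = 3.83e-04 and 1.91e-04), with both epithelia apart from their mesenchymes and neither called. For Acaca, acetyl-CoA carboxylase, the differences were 0.44 and 0.52, and for Fasn, fatty acid synthase, 0.30 and 0.35. None of these 4 genes was called in any comparison at its brightest probe set.

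Fads1, Fads2 and Scd1 gave the 3 largest differences of the 27 members between epidermis and dermis. All 3 were lower in epidermis than in dermis, and Fads1 was lower in UGE than in UGM. Fads1 and Fads2 are the front-end desaturases that make long polyunsaturated fatty acids, and Scd1 makes monounsaturated ones. Fads1 was 8.50, 8.05, 7.72 and 7.27 in epidermis and 10.20, 10.55, 10.25 and 10.14 in dermis, a gap wider than either range. Epidermis was lower by 2.40 ± 0.23 on the log2 scale or 5.28-fold (adjusted p = 4.30e-05). In the urogenital sinus it was 9.03 to 10.29 in UGE (median 9.45) and 11.13, 11.002, 10.98, 10.89 and 11.04 in UGM, again without overlap. UGE was lower by 1.41 ± 0.23 or 2.66-fold (adjusted p = 4.12e-04), and by 1.76 without UGE replicates 2 and 3. UGE was higher than epidermis by 1.71 ± 0.25 (adjusted p = 1.92e-05).

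Fads2 was likewise highest in UGM and lowest in epidermis by group mean. It was 6.64, 5.74, 6.20 and 5.96 in epidermis and 8.27, 8.55, 8.35 and 8.04 in dermis, and epidermis was lower by 2.16 ± 0.19 or 4.48-fold (adjusted p = 2.53e-05). In UGE it was 8.05, 8.99, 9.14, 8.07, 8.26 and 7.53, and in UGM 9.08, 9.44, 9.27, 9.32 and 9.41. UGE replicate 3 alone overlapped the UGM range. The difference of -0.97 ± 0.25 was just under the fold limit (adjusted p = 0.0099) and was called without UGE replicates 2 and 3, at -1.33. UGE was 4.60-fold higher than epidermis (log2 difference 2.20 ± 0.25, adjusted p = 8.19e-07). Fads2 was the 1 member called between mesenchymes at its brightest probe set, higher in UGM by 1.004 ± 0.256 or 2.01-fold (adjusted p = 0.0045). That call was lost with the replicate block (0.98) and without UGM replicate 2 or 5 or dermis replicate 1, 3 or 4 (0.92 to 1.02). It was also lost with the median over probe sets (0.92), under which Fads1 was called higher in UGM, at 1.24. The brightest Fads1 probe set gave 0.72, not called, and a dimmer one 1.76, called. The dimmer probe sets of Fads2 were also called lower in epidermis than dermis, at -1.24 and -1.09, but a dimmer Fads1 probe set was at 0.22.

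Scd1 was 7.85, 7.50, 7.55 and 7.45 in epidermis and 8.70, 9.12, 9.14 and 8.53 in dermis, lower in epidermis by 1.29 ± 0.16 or 2.44-fold (adjusted p = 2.22e-04). The call was lost when all 4 groups were put in 1 fit, where the spread includes UGE. In UGE it was 6.68, 8.76, 8.60, 6.15, 5.95 and 6.83, and in UGM 8.98, 9.05, 8.75, 8.84 and 8.98. UGE replicates 2 and 3 lay within or just under the UGM range and the other 4 far below it. The difference over all samples was -1.76 ± 0.49 (adjusted p = 0.0132) and not called. It was called without replicate 2 (-2.08), without replicate 3 (-2.05) and without both (-2.52), so that the number of members called between UGE and UGM rose from 3 to 5 with Fads2. Adipocyte markers, beside Scd1, summed to 4190 to 6257 in dermis and 505 to 892 in UGM (5 of 8 measured), with Adipoq at 3.90 and 3.56 on the log2 scale. Scd2, a desaturase known from brain and embryo, had means of 13.79, 13.55, 13.13 and 13.25 in UGE, UGM, epidermis and dermis, with no call at its brightest probe set. A dimmer Scd2 probe set disagreed and was called lower in UGE than in epidermis (-1.35) and in UGM than in dermis (-1.80), where the brightest gave 0.66 and 0.30.

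Elovl6, which lengthens palmitate, was 10.47, 9.36, 9.01, 9.96, 9.98 and 10.22 in UGE, 10.86, 10.89, 10.94, 10.95 and 10.50 in UGM, 10.75, 11.41, 11.76 and 11.65 in epidermis and 10.91, 10.85, 11.27 and 10.88 in dermis. UGE lay below all other groups, and UGE replicates 2 and 3 were the lowest of all. UGE was lower than epidermis by 1.56 ± 0.24 on the log2 scale or 2.94-fold (adjusted p = 3.67e-05). Against UGM the difference was -0.995 ± 0.232 (adjusted p = 0.00487), just under 2-fold, and it was called without UGE replicate 1, 4, 5 or 6 or UGM replicate 5 (-1.02 to -1.12). The difference between sites was called at -1.41 ± 0.34 (adjusted p = 0.00579), a call lost without UGM replicate 1, 2, 3 or 4, epidermis replicate 2, 3 or 4, or dermis replicate 1, 2 or 4 (-1.29 to -1.40). Gpam, an acyltransferase that starts glycerolipid synthesis, was 11.63, 11.97, 12.07 and 11.91 in epidermis and 11.06, 10.76, 10.79 and 10.87 in dermis. It was higher in epidermis by 1.03 ± 0.12 (adjusted p = 1.61e-04), a call lost without epidermis replicate 3 (0.97) or dermis replicate 2 or 3 (0.991 and 0.9999), and with the median over its probe sets (0.61).

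**Figure D3:**
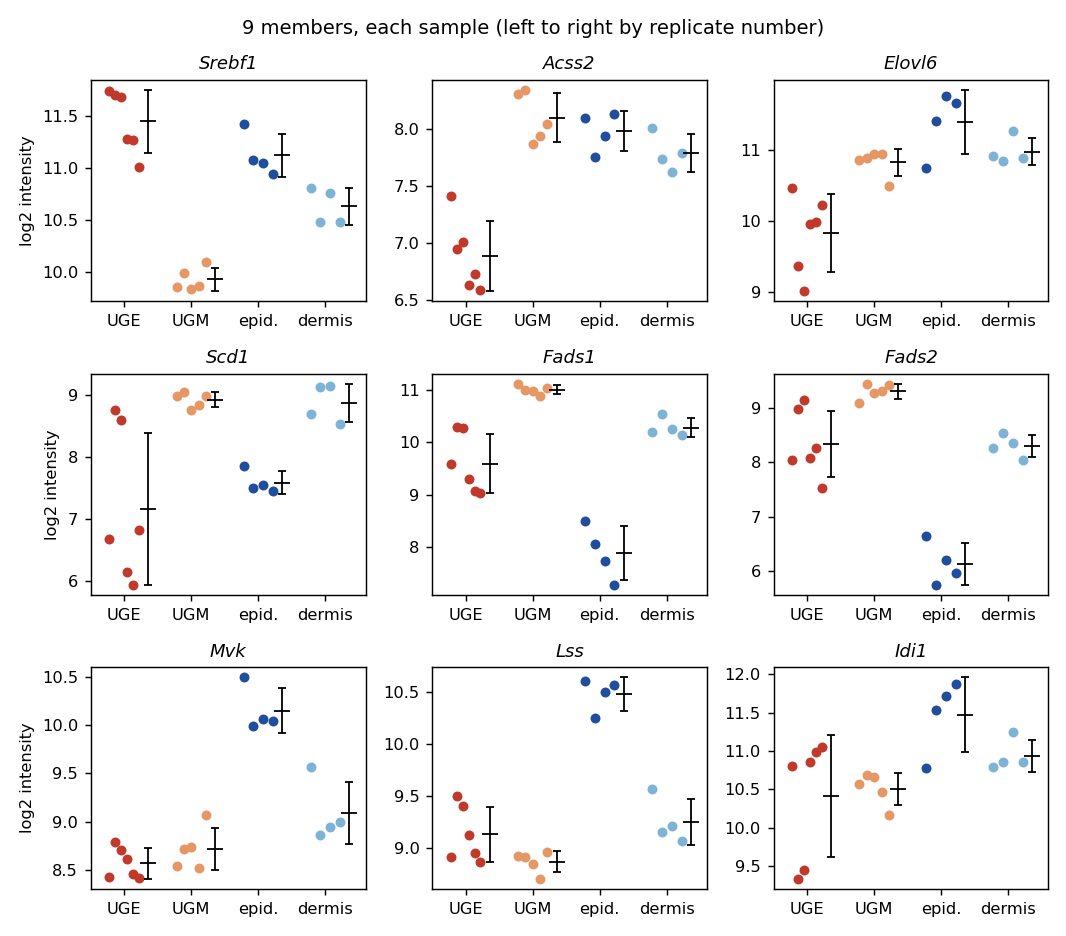
Log2 intensity of 9 members in each sample; coloured points are samples in order of replicate number and the black bars beside them are the mean and SD of the group. Fads1 and Fads2 are lowest in epidermis, Mvk and Lss highest there, Acss2 lowest in UGE, and UGE replicates 2 and 3 are apart from the other UGE samples for Scd1 and Idi1.

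Fatty acid members therefore had no common direction. Between UGE and UGM 0 of 11 were called higher and 2 lower (Acss2 and Fads1), against 6.75% and 10.0% of all genes. In 5 of 11 every UGE sample was above UGM and in 3 below, against 14.5% and 16.2% of genes. In skin 1 was called higher in epidermis (Gpam) and 3 lower (Scd1, Fads1 and Fads2), against 5.84% and 11.1% of genes. Between epithelia 2 were higher in UGE (Fads1 and Fads2) and 2 lower (Acss2 and Elovl6), against 8.28% and 6.12%. Over all 27 members the calls were 3 between UGE and UGM, 8 between epidermis and dermis, 9 between UGE and epidermis, 1 between UGM and dermis and 4 for the difference between sites. Shares of all genes called higher and lower were 6.77% and 7.00% between UGM and dermis, and 7.53% and 5.41% for the difference between sites. The count of members for the difference between sites ran from 2, without epidermis replicate 4, to 7, without epidermis replicate 1.

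**Figure D4:**
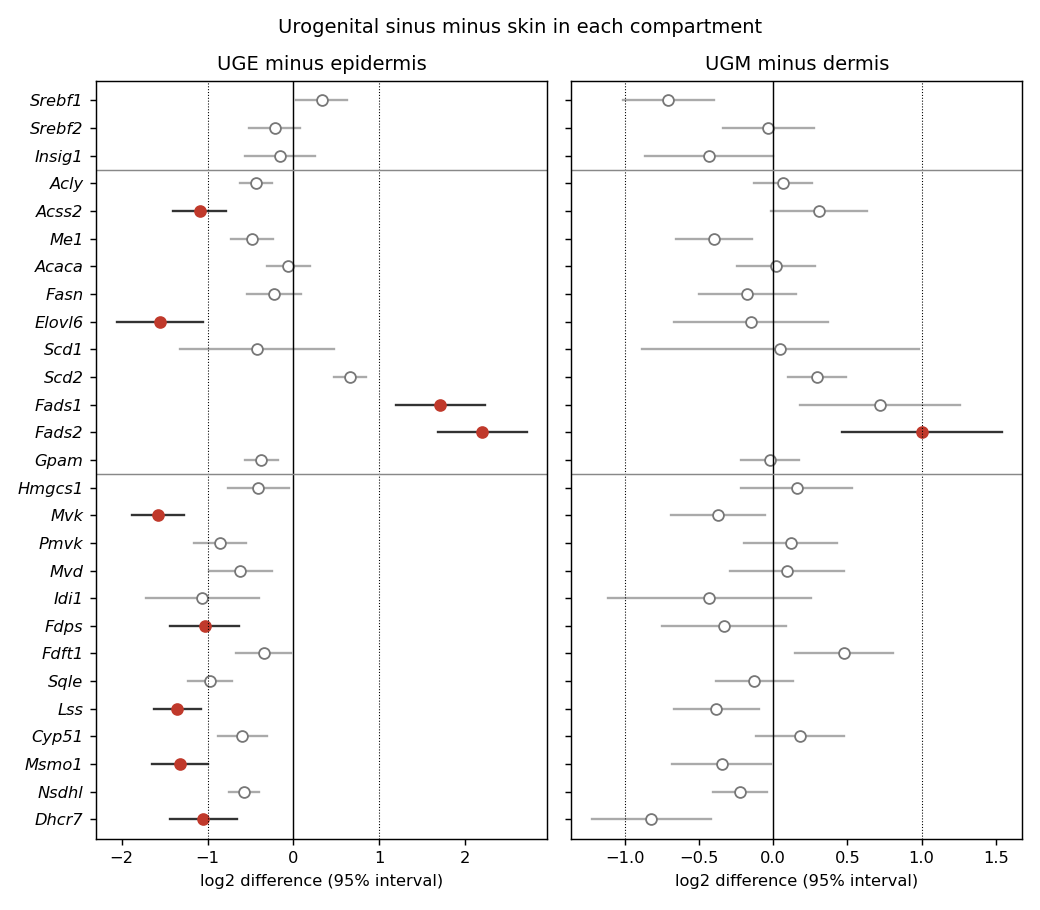
Log2 difference with its 95% interval for each member, UGE minus epidermis (left) and UGM minus dermis (right), from 1 fit of all 4 groups; filled red points are called and dotted lines mark 2-fold. All 13 sterol members lie below 0 on the left, Fads1 and Fads2 lie above 0, and Fads2 is the 1 called member on the right.

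To set sterol against fatty acid members, each value was taken relative to the mean of that gene over the 19 samples and averaged per sample. The sterol mean was 0.56, 0.56, 0.73 and 0.84 in the epidermis samples and -0.32 to 0.07 in all others, so epidermis lay apart. The fatty acid mean was -0.16 to -0.06 in epidermis, 0.16 to 0.23 in UGM and -0.07 to 0.11 in dermis. In UGE it was 0.15 and 0.14 in replicates 2 and 3 and -0.35 to -0.10 in the other samples. The sterol mean minus the fatty acid mean was 0.79 ± 0.15 (SD, n = 4) in epidermis, -0.11 ± 0.06 (n = 4) in dermis, -0.11 ± 0.18 (n = 6) in UGE and -0.42 ± 0.06 (n = 5) in UGM. It is a description with no test, and the fatty acid mean rests on genes that moved in opposite directions.

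**Figure D5:**
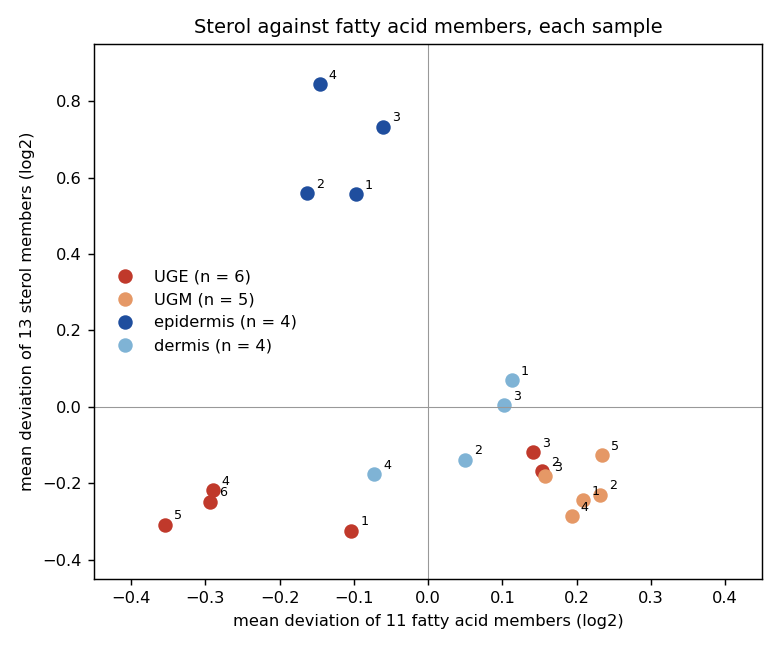
Mean deviation of the 13 sterol members (vertical) against that of the 11 fatty acid members (horizontal), both in log2 units relative to the mean of each gene; each point is a sample with its replicate number. The 4 epidermis samples lie at 0.56 to 0.84 on the vertical axis, above all others, and UGE replicates 2 and 3 lie beside UGM on the horizontal axis.

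Of 43 other genes listed for the same pathways 35 were analysed here. Between UGE and UGM 5 were called higher in UGE and none lower, against 6.75% and 10.0% of all genes. Between epidermis and dermis 7 were higher in epidermis and 3 lower, against 5.84% and 11.1%. Among 8 further sterol genes, Sc5d, a sterol desaturase, was called at both sites, with differences of 1.11 ± 0.12 (adjusted p = 1.48e-05) in the urogenital sinus and 1.41 ± 0.16 (adjusted p = 9.65e-05) in skin. It was the 1 sterol gene analysed, member or not, that was called between UGE and UGM. Hsd17b7, a ketosteroid reductase of the same demethylation steps as Msmo1, was at -0.05 between UGE and UGM and at 1.69 ± 0.23 in skin (adjusted p = 3.51e-04). The difference between sites was called, at -1.74 ± 0.24 (adjusted p = 2.56e-05).

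Elovl7, Acsl5 and Dgat2, which lengthen, activate and store fatty acids, were higher in both epithelia. Elovl7, an elongase, had differences of 1.76 ± 0.13 (adjusted p = 3.94e-07) and 2.42 ± 0.37 (adjusted p = 6.80e-04). Acsl5, an acyl-CoA synthetase, was higher by 1.97 ± 0.09 in UGE (adjusted p = 3.69e-09) and by 1.14 ± 0.14 in epidermis. Dgat2, which makes triglyceride, was higher by 1.14 ± 0.13 and 2.23 ± 0.41 (adjusted p = 2.56e-05 and 0.00201). With Elovl1 these made 4 of 18 further fatty acid genes called between UGE and UGM. The genes called lower in epidermis than in dermis were Abca1, a cholesterol exporter (-1.72 ± 0.15, adjusted p = 2.17e-05), Ch25h, which makes an oxysterol (-1.12 ± 0.18, adjusted p = 9.64e-04), and Acsl3 (-1.11 ± 0.21, adjusted p = 0.00227). None of 6 further control genes was called in either comparison.

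Markers of other cell types that use or store these lipids varied between the sites, and their part in the results was not tested. Sebaceous markers (5 of 6 measured) summed to 2019 to 2945 in epidermis and 3237 to 3632 in dermis, against 1879 to 3002 in UGE and 2258 to 2923 in UGM. Plin2 gave most of that sum (log2 means of 10.40 in epidermis and 11.28 in dermis), whereas Krt79 was at 8.57 and 7.44 and Mc5r at 6.19 and 6.10. Steroidogenic markers (5 of 5) summed to 449 to 601 in epidermis and 542 to 797 in dermis, and to 185 to 269 in UGE and 189 to 214 in UGM. Cyp17a1 was at log2 means of 8.35 in epidermis and 6.04 in dermis, and Cyp11a1 had the opposite order, at 5.63 and 8.90. Star, Nr5a1 and Hsd3b1 were faint, with means of 4.28 to 6.14 over the 4 groups. Liver markers (4 of 4) summed to 193 to 376 in all samples. Schwann markers (3 of 5 measured) ran from 1040 to 1932, a sum carried by Mbp, which was higher in the epithelia (log2 means of 10.69 in UGE and 10.15 in epidermis, against 8.42 in UGM and 8.47 in dermis). Sox10 and Foxd3 of the same list had the opposite order, Sox10 at 7.35 in UGE and 9.61 in UGM and at 8.95 in epidermis and 9.40 in dermis. Adipocyte markers summed to 4573 in epidermis replicate 1, 2093 to 2232 in the other epidermis samples and 658 to 1044 in UGE. Adipoq, their defining gene, was at 9.63 in 1 epidermis sample, with an epidermis median of 3.68. Between skin layers the list was mixed. Cebpa had log2 means of 10.56 in epidermis and 8.76 in dermis, whereas Fabp4 was at 7.57 and 10.74, Lpl at 8.91 and 11.13 and Pparg at 8.09 and 8.81. In UGE Pparg was at 8.68 and Cebpa at 8.30, with Adipoq at 3.62. Epidermis replicate 1 was also the lowest of its layer for Idi1, Hmgcs1 and Msmo1 and the highest for Mvk, and the part of adipocyte RNA in those values was not tested.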

How the data were processed

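Total RNA of 19 tissue samples, amplified over 2 labelling cycles, was read on MOE430 2.0 arrays. The deposited values are linear intensity per probe set (45101 probe sets), normalized between arrays by the authors. The methods name GCOS, MAS5 calls and PLIER, and the submitters' processing notes give GCOS 1.4. The sources used here do not say which of them made the table. Scaling fixes the overall level of an array, so values show change relative to the other genes, and faint probe sets understate it.

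Log2 values were taken with no further normalization. Control probe sets (64) were dropped, and 41549 that exceeded 20 on some array entered limma (version 3.58.1, R version 4.3.3; moderated linear models, 2-sided, Benjamini-Hochberg over all tested probe sets). The comparisons within a site, UGE versus UGM and epidermis versus dermis, used a fit of their own samples; UGE with epidermis, UGM with dermis and the difference between the compartment differences came from 1 fit of all 4 groups. Calls needed an adjusted p under 0.01 and over 2-fold, the thresholds of the methods. A gene was its brightest tested probe set with 1 symbol (34945 probe sets have 1 symbol, 932 several, 9160 none), and shares of all genes count 1 probe set per gene. The number of arrays limits the precision. The submitters call the samples of a group biological replicates.

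The 27 members and the lists of other pathway genes and markers were chosen with earlier results of these data known. All members were named, with samplewise values for those called in a pairwise comparison. Of other pathway genes up to 3 called in each direction of each within-site comparison were named, and Sc5d and Elovl1 were added after their values were seen. Same-numbered epidermis and dermis samples deviated together weakly (r = 0.343, 0.108, 0.264 and 0.168), while differently numbered ones had r from -0.316 to 0.299. The numbers may pair them, but this rests on the values, as no label states it. Same-numbered samples of UGE and UGM had r of no common sign (0.648, 0.006, -0.122, 0.138 and -0.406). Promoter letters were searched in Python 3.11.15 and figures drawn with matplotlib 3.10.9. The tests were checked on simulated data. Alternatives were quantile normalization, 50 added before log2, other filters and thresholds, treat, the methods' t-test, other rules for probe sets, the replicate block and leaving out samples. Leaving out UGE replicates 1, 2 and 3 together, and epidermis and dermis replicates 1 together, was chosen after seeing the data.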

Additional observations from a re-analysis of the deposited data

Results flagged for a closer look

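In 7 of 108 pairs of a member and a group, the highest or lowest sample stood far from the others of its group; chance alone flags about 1 in 20 such groups. Srebf2 was 8.95 in UGM replicate 2 and 8.57 to 8.62 in the other UGM samples. Insig1 was 8.87 in dermis replicate 1 and 9.41 to 9.48 in the others. Elovl6 was 10.50 in UGM replicate 5, against 10.86 to 10.95, and 11.27 in dermis replicate 3, against 10.85 to 10.91. Dermis replicate 3 was also high for Idi1, at 11.24 against 10.79 to 10.86. Scd2 was 13.93 in UGE replicate 6, against 13.72 to 13.79, and Mvk was 10.49 in epidermis replicate 1, against 9.99 to 10.06.

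For 4 members the difference between epithelium and mesenchyme was not the same at both sites, by the test of the difference itself (UGE minus UGM, minus epidermis minus dermis, on the log2 scale). Of all genes, 7.53% were called higher and 5.41% lower by this test. The difference was 1.03 for Srebf1, -1.40 for Acss2, -1.41 for Elovl6 and -1.21 for Mvk. The within-site values behind them were 1.53 and 0.49 for Srebf1, -1.21 and 0.19 for Acss2, -0.995 and 0.41 for Elovl6, and -0.15 and 1.06 for Mvk.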

How the results depend on the processing

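The 25 called differences of members kept their direction under every alternative run. Of 663 recomputed values 586 stayed called and 77 did not, and the cause was not tested. The looser thresholds among these runs could lose no call. Leaving out samples of a group outside the comparison left the difference itself unchanged. The share that stayed called is therefore not a measure of robustness. Called members for UGE versus UGM, epidermis versus dermis, UGE versus epidermis, UGM versus dermis and the difference between sites were 3, 8, 9, 1 and 4. By adjusted p alone they were 8, 16, 18, 3 and 10, and by treat, which tests for more than 2-fold, 0, 2, 1, 0 and 0. Leaving out 1 sample gave 3 to 5, 6 to 8, 8 to 9, 0 to 1 and 2 to 7. UGE versus UGM had 5 without UGE replicates 2 and 3, and 5 without replicates 1, 2 and 3. UGM versus dermis had 0 with 50 added before log2 and 0 with the replicate block. The replicate block gave 6 for the difference between sites and changed no other count.

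Sterol minus fatty acid differences between groups, in the order of the first 4 comparisons, were 0.31, 0.90, -0.90 and -0.31, and 0.28 to 0.36, 0.83 to 0.94, -0.94 to -0.83 and -0.34 to -0.29 without 1 sample. With the median over the probe sets of a gene they were 0.15, 0.59, -0.61 and -0.17. With the median over members the first 3 were -0.0145, 0.39 and -0.67, and without Acly and Acss2 the second and the third were 1.05 and -1.07.

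Changes of sign occurred in uncalled members. With the median over probe sets UGE minus UGM was 0.28 for Srebf2, -0.0536 for Fdft1 and -0.76 for Lss; UGE minus epidermis was -0.22 for Scd2; UGM minus dermis was -0.30 for Acly, -0.16 for Scd1, -0.59 for Scd2 and 0.26 for Lss; and the difference between sites was 0.0766 for Srebf2. With the replicate block UGE minus UGM was 0.0465 for Mvd and the difference between sites 0.0186 for Fasn, and with quantile normalization UGM minus dermis was 0.016 for Gpam. Without UGE replicates 2 and 3 UGE minus UGM was 0.41 for Idi1 and -0.12 for Fdft1, and without replicates 1, 2 and 3 it was 0.45, -0.10 and, for Dhcr7, -0.0467. Leaving out 1 sample changed the sign of 25 of 1689 uncalled values.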
